A study of Mus musculus with 10 samples.

Results

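The transcription factors described here, Batf3, Batf, Batf2, Nfil3, Bcl6, Zfp366, Zbtb46, Spi1, Klf4 and Klf2, are known for setting or keeping the identity of conventional dendritic cells (cDCs). They were taken by gene name from a deposited expression table, in which they are 10 of 52550 genes. The table holds RNA sequencing of cDC precursors from the spleens of C57BL/6 mice in 10 libraries. The precursors were pre-cDC1 and pre-cDC2, committed to the cDC1 and cDC2 branches, named DN and Ly6C in the titles. WT mice gave 3 pre-cDC1 libraries (replicates 1, 2 and 3) and 2 pre-cDC2 libraries (replicates 2 and 3). CD11c-cre Adam10fl/fl mice, called KO below, gave 3 pre-cDC1 libraries (replicates 1, 2 and 3) and 2 pre-cDC2 libraries (replicates 1 and 2). In KO mice Cre is made under the CD11c promoter, which is active in dendritic cells and in some other leukocytes, and removes a loxP-flanked part of Adam10, the gene of a membrane protease that sheds surface proteins. The labels name no Cre or floxed allele for the WT mice, and give no age, no number of animals and no statement that replicates came from separate animals. The p-values below therefore measure the spread between these libraries, which may be technical.

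Conventional dendritic cells take up antigen and present it to T cells, and their cDC1 and cDC2 branches are set by different transcription factors acting on a shared base. PU.1, encoded by Spi1, and ZBTB46 belong to that base. BATF3, a short bZIP protein that pairs with JUN proteins and binds DNA together with IRF8, keeps the cDC1 programme running, and NFIL3, BCL6 and DC-SCRIPT, encoded by Zfp366, also serve that branch. KLF4 serves part of the cDC2 branch, and KLF2 controls quiescence and the traffic of leukocytes between blood and tissue.

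Promoter sequence was read for the members that RefSeq lists with a start site on GRCm38.p6, which were 7 of the 10 (Batf3, Batf, Nfil3, Bcl6, Zbtb46, Klf4 and Klf2). The 4 stretches printed here are the bases before that start site that no GENCODE M21 exon covers. They stand for a factor that was lower in pre-cDC2 by a wide margin (Batf3), a repressor that was lower by less (Bcl6) and both KLF factors, whose differences did not pass the test. Capitals mark letters that match any of 7 motifs on either strand, and matches that overlap run together. The motifs were TGANTCA for AP-1 and BATF, GAAA followed after any 2 bases by GAAA for IRF factors, GGAA followed after any 2 bases by GAAA for an ETS or PU.1 site beside an IRF site, GAGGAA for PU.1, CCNCNCCC for KLF factors, TTANGTAA for NFIL3 and TTCCNNGAA for BCL6. Batf3 is shown at chr1:191098238-191098324 on the plus strand, Bcl6 at chr16:23988853-23989102 on the minus strand, Klf4 at chr4:55532476-55532725 on the minus strand and Klf2 at chr8:72318812-72319032 on the plus strand.
Batf3: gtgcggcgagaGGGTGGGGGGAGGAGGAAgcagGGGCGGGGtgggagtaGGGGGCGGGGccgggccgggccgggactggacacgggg
Bcl6: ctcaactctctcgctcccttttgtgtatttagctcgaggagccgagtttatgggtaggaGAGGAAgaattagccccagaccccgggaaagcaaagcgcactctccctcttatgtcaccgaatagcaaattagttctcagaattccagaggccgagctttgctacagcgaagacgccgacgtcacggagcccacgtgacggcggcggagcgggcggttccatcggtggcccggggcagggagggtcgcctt
Klf4: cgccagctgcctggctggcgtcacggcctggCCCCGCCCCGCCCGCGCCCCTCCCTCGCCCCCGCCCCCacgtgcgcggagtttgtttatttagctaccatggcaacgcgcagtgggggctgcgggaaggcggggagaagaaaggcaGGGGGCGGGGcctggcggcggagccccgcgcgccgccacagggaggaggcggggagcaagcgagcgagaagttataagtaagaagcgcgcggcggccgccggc
Klf2: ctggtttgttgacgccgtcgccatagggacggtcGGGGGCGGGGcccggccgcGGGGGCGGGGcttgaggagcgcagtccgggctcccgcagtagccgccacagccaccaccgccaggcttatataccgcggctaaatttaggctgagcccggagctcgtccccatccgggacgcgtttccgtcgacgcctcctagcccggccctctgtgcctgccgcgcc

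The printed Batf3 stretch of 87 bases held 5 matches to the KLF letters and 1 to the PU.1 letters, and the Bcl6 stretch of 250 bases held 1 match to the PU.1 letters. The Klf4 stretch held 9 matches to the KLF letters and the Klf2 stretch 4. The GC content was 80.5% for Batf3, 58.4% for Bcl6, 74% for Klf4 and 71.5% for Klf2, against a median of 52.4% over the 250 bases before the start in all 32851 promoters of the table. Over the whole 250 bases, the KLF letters were found before 4 of the 7 genes (Batf3, Nfil3, Klf4 and Klf2) and in 45.9% of all promoters. The PU.1 letters were found before Batf3 and Bcl6 and in 23.3% of all promoters. The AP-1 letters were found before Zbtb46 alone among the 7 genes and in 6.75% of all promoters. Bcl6 has a second RefSeq start, not printed. The BCL6 letters were found before Batf3, outside the printed stretch, and before Bcl6 at that second start alone. They were found in 4.06% of all promoters. The GGAA and GAAA pair was found before Bcl6 alone among the 7 genes, at the second start, and in 2.3% of all promoters. The RefSeq starts used for Batf3 and Zbtb46 and the second start of Bcl6 lie inside the genes as GENCODE draws them, and the printed Batf3 stretch lies within the gene, outside its exons. A match describes letters only and is not a binding site.

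The labelled cell types were checked against marker genes. The mean of 14 cDC1 genes was 7.24 to 7.76 log2 RPKM in the 6 pre-cDC1 libraries and 1.81 to 2.23 in the 4 pre-cDC2 libraries. RPKM is the number of reads of a gene scaled by the length of the gene and the size of the library, so levels can be compared between genes. Of 13 tested cDC2 genes, 8 rose and 1 fell in KO pre-cDC2 against KO pre-cDC1 by limma, while 1 rose and 1 fell in WT. Of 9 core cDC genes, 7 were lower in pre-cDC2 in each genotype, such as Cst3 and Btla, and Flt3 and Itgax did not pass the test, with a median difference of -2.66 log2 in WT and -3.18 in KO. T cell transcripts were high in 3 of the 4 pre-cDC2 libraries. The summed level of 14 T cell markers was 2713 RPKM in WT pre-cDC2 replicate 3, 1967 in KO pre-cDC2 replicate 1 and 1807 in its replicate 2, but 138 in WT pre-cDC2 replicate 2 and 4.46 to 29.3 across pre-cDC1. For 11 NK cell markers the sums were 1644, 1856 and 1517 RPKM in the same 3 libraries, 90.2 in WT pre-cDC2 replicate 2 and 38.9 to 64.4 in pre-cDC1. For 10 plasmacytoid DC markers the sums were 316 to 864 RPKM in pre-cDC2 and 71.9 to 120 in pre-cDC1. None of these T, NK or plasmacytoid DC markers was at 0 reads in a pre-cDC2 library. The library of WT pre-cDC2 replicate 2 stood apart. Its Pearson's r with replicate 3, taken across genes, was 0.774, while within-group pairs elsewhere reached 0.867 to 0.886. Differences of the members that rest on this library are given with and without it. Those of other genes use both WT pre-cDC2 libraries. A fit that leaves out replicate 2 or replicate 3 has a lone library in WT pre-cDC2, so its p-values hold no spread of that group. Among pre-cDC1 libraries Adam10 itself ranged from -2.29 to 0.13 log2 RPKM (WT) and from -3.90 to -1.50 (KO), and among pre-cDC2 libraries it read 1.76 and 4.53 (WT replicates 2, 3) and 4.24 and 4.11 (KO replicates 1, 2). Those values include exons that the labels do not say are deleted, and do not check the deletion.

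In WT mice, Batf3, Bcl6, Zfp366 and Zbtb46 were lower in pre-cDC2 than in pre-cDC1, and no member was higher by the same test. In KO mice the same genes and Batf2 were lower. The limma fit over all 14787 tested genes, at an adjusted p under 0.05, called 11.5% of genes in WT, with 6.59% lower and 4.88% higher, where 4 of the 10 members were lower. It called 20.8% in KO, with 10.1% lower and 10.7% higher, where 5 of the 10 members were lower. With the replicate number as a block within each genotype, which would apply if same-numbered libraries came from the same mouse, the members past the test fell to 1 in WT (Batf3) and 2 in KO (Batf3 and Zfp366). The share of all tested genes past the test fell as well, to 1.47% in WT and 7.4% in KO. All 10 members passed the filter on low values. The median difference of the members was -1.41 log2 in WT and -1.22 in KO, beside 0.06 and 0.09 over all tested genes. In WT the 2 groups did not overlap for 5 members (Batf3, Batf2, Bcl6, Zfp366 and Zbtb46), all of them lower, against 38.7% of tested genes in either direction and 18.5% lower. In KO they did not overlap for 9 members, Nfil3 being the exception, against 51.7% of tested genes in either direction. Of those members, Batf and Klf4 were higher in pre-cDC2 and the rest lower. Since these are bulk samples, fewer cells of a type and less RNA per cell cannot be told apart in any of these differences. The core cDC genes and the T, NK and plasmacytoid DC markers moved between the same groups, and their part in the members' differences was not tested.

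Batf3 (ENSMUSG00000026630.9, chr1:191097847-191108945 on GRCm38, plus strand), the bZIP factor that cDC1 depend on, gave high values in pre-cDC1 and low ones in pre-cDC2. For Batf3, the pre-cDC1 libraries read 4.50, 4.73 and 4.51 log2 RPKM (WT) and 4.96, 4.54 and 4.76 (KO), and the pre-cDC2 libraries read -0.26 and -2.44 (WT replicates 2, 3) and -1.33 and -2.65 (KO replicates 1, 2). Every pre-cDC1 library was above every pre-cDC2 library, and the highest pre-cDC2 value was that of WT replicate 2. The difference was -5.93 ± 0.59 log2 in WT (SE, n = 2 and 3, limma adjusted p = 0.000342), or 61.1-fold lower, and -6.74 ± 0.59 in KO (limma adjusted p = 0.000103), or 107-fold lower. The values rest on 325 to 510 reads per library in pre-cDC1 and on few reads in pre-cDC2. Those were 18 and 3 reads in WT, with exact 95% Poisson intervals of 10.7 to 28.4 and 0.619 to 8.77, and 6 and 2 reads in KO, with intervals of 2.2 to 13.1 and 0.242 to 7.22. Such intervals cover counting error only, because PCR copies without molecular identifiers are not independent molecules. Without WT pre-cDC2 replicate 2 the WT difference was -7.02 log2. In KO the difference ran from -7.41 to -6.08 log2 on leaving out a library. It was -4.46 in KO with 1 RPKM added before the log2.

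Batf (ENSMUSG00000034266.6, chr12:85686669-85709087, plus strand), a close relative of Batf3 best known from T cells, showed no such split. For Batf, the pre-cDC1 libraries read 3.69, 4.03 and 2.67 log2 RPKM (WT) and 3.51, 2.50 and 3.70 (KO), and the pre-cDC2 libraries read 3.74 and 3.96 (WT replicates 2, 3) and 3.78 and 3.92 (KO replicates 1, 2). The WT groups overlapped, and pre-cDC1 libraries spread over a wider range than pre-cDC2 libraries. The difference between the cell types was 0.38 ± 0.43 log2 in WT (95% interval -0.59 to 1.36, limma adjusted p = 0.644) and 0.61 ± 0.43 in KO (95% interval -0.37 to 1.58, limma adjusted p = 0.370), and neither passed the test. Within a library, Batf3 minus Batf lay between 0.70 and 2.04 log2 in the 6 pre-cDC1 libraries and between -6.57 and -3.99 in the 4 pre-cDC2 libraries. Batf3 was thus the more abundant of these relatives per length in each pre-cDC1 library, and Batf in each pre-cDC2 library.

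Batf2 (ENSMUSG00000039699.13, chr19:6140983-6172476, plus strand), a family member that can stand in for Batf3 under inflammation, was the least abundant member in every pre-cDC1 library, where it read 1.44, 1.00 and 1.21 log2 RPKM (WT) and 0.44, 1.75 and 1.58 (KO). Reads of Batf2 numbered 35 to 83 per pre-cDC1 library, and in pre-cDC2 they numbered 24 and 0 (WT replicates 2, 3) and 0 and 4 (KO replicates 1, 2). The pre-cDC2 libraries were below the pre-cDC1 libraries in both genotypes. The fitted difference was -4.81 ± 1.74 log2 in WT (limma adjusted p = 0.114) and -5.79 ± 1.74 in KO (limma adjusted p = 0.0429), and depends on the value given to a library with no read. With those libraries set to a floor of 3 reads each, the mean difference was -3.08 log2 in WT and -3.97 in KO, or 8.47-fold and 15.7-fold lower. These are estimates and not lower bounds. The WT difference was -1.72 log2 with WT pre-cDC2 replicate 2 alone. Under alternatives that kept all libraries, differences were as small as -1.34 log2 in WT and -1.65 in KO. The KO call was lost with no filter on low values (limma adjusted p = 0.0530) and on leaving out any of 7 libraries in turn. Without WT pre-cDC2 replicate 2 the WT difference was -7.89 log2.

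**Figure D1:**
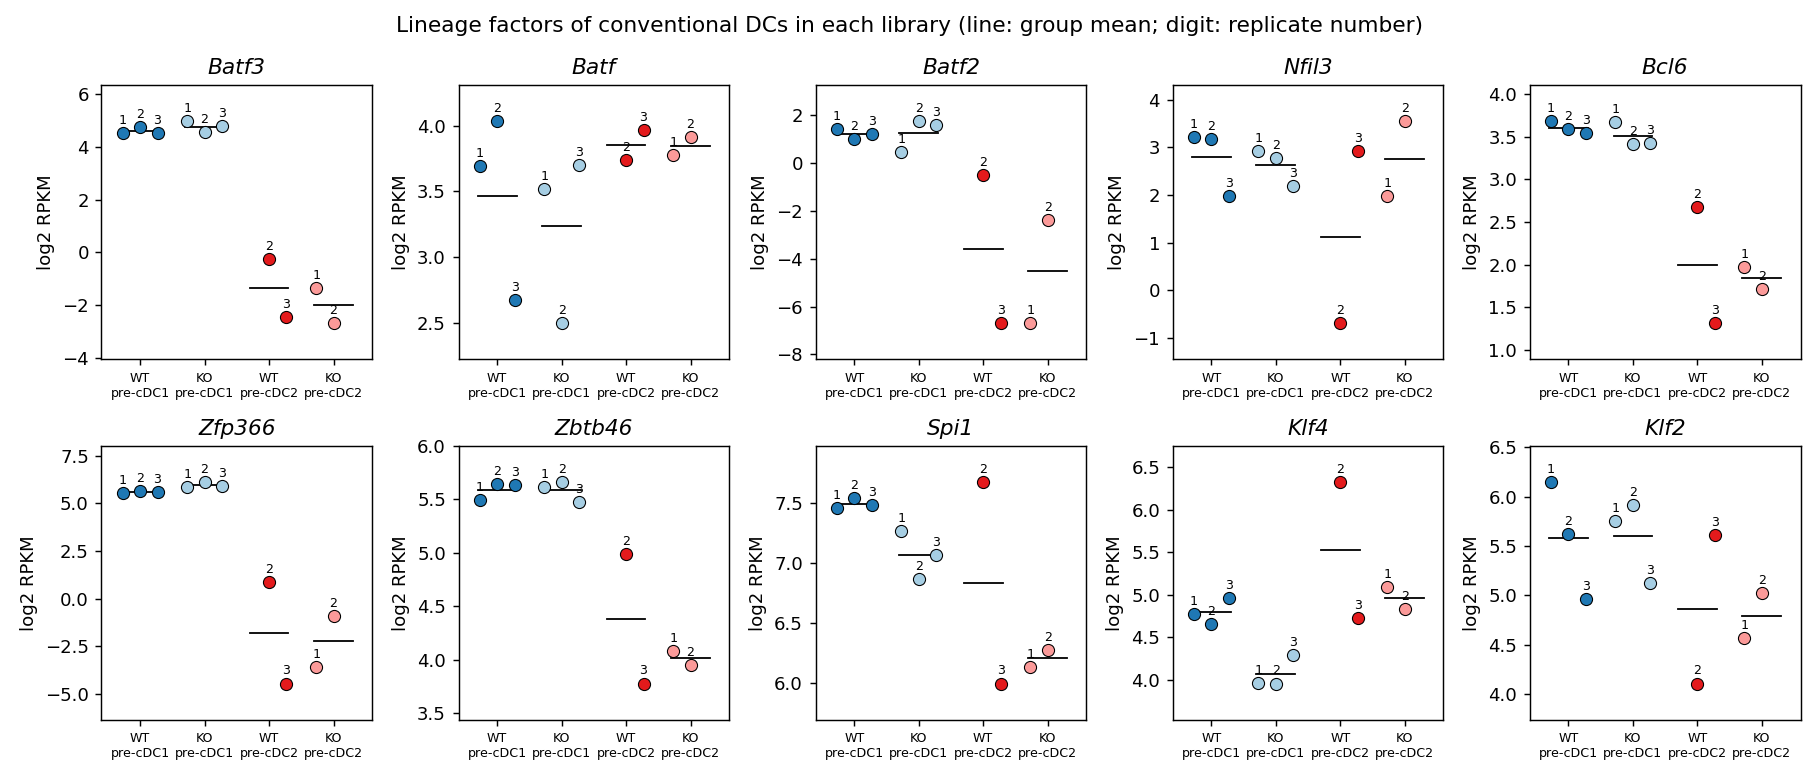
Level of each member in every library, as log2 RPKM on the vertical axis, with libraries grouped by genotype and cell type on the horizontal axis. Points are libraries, digits are replicate numbers and lines are group means. Batf3, Batf2, Bcl6, Zfp366 and Zbtb46 have every pre-cDC1 library above every pre-cDC2 library, and WT pre-cDC2 replicate 2 lies outside the range of the other 3 pre-cDC2 libraries in each panel.

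Zfp366 (ENSMUSG00000050919.9, chr13:99184823-99250656, plus strand), whose product DC-SCRIPT is a zinc finger corepressor of dendritic cells, had the widest split. For Zfp366, the pre-cDC1 libraries read 5.53, 5.67 and 5.57 log2 RPKM (WT) and 5.87, 6.12 and 5.89 (KO), and the pre-cDC2 libraries read 0.87 and -4.44 (WT replicates 2, 3) and -3.58 and -0.88 (KO replicates 1, 2). The pre-cDC1 libraries held 2645 to 4359 reads of the gene each, and the pre-cDC2 libraries 160, 3, 5 and 30 in the same order. No library of either cell type came near the other. The difference was -7.37 ± 1.27 log2 in WT (SE, n = 2 and 3, limma adjusted p = 0.00642), or 166-fold lower, and -8.19 ± 1.27 in KO (limma adjusted p = 0.00209), or 292-fold lower. Its rank among all tested genes was at the 93.2 percentile in WT pre-cDC1 and the 7.2 percentile in WT pre-cDC2. Without WT pre-cDC2 replicate 2 the WT difference was -10.03 log2, and with it alone -4.72. The KO difference ran from -9.54 to -6.84 log2 on leaving out KO pre-cDC2 replicate 2 or 1 and was -5.61 with 1 RPKM added, and the WT call was lost when only the groups compared were fitted (limma adjusted p = 0.0870).

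Bcl6 (ENSMUSG00000022508.5, chr16:23965052-23988852, minus strand), a repressor that cDC1 need and that is also a master factor of follicular T cells and germinal centre B cells, was lower in pre-cDC2 by a smaller margin. For Bcl6, the pre-cDC1 libraries read 3.68, 3.59 and 3.54 log2 RPKM (WT) and 3.67, 3.42 and 3.43 (KO), and the pre-cDC2 libraries read 2.68 and 1.32 (WT replicates 2, 3) and 1.97 and 1.72 (KO replicates 1, 2). All pre-cDC1 libraries were above all pre-cDC2 libraries, and reads were ample in each, from 186 to 879. The difference was -1.61 ± 0.35 log2 in WT (limma adjusted p = 0.0174), or 3.04-fold lower, and -1.66 ± 0.35 in KO (limma adjusted p = 0.00888), or 3.16-fold lower. Its WT value was -2.28 log2 when WT pre-cDC2 replicate 2 was left out and -0.93 with that library alone. The WT call was lost without WT pre-cDC1 replicate 1 (limma adjusted p = 0.0586) or replicate 2 (adjusted p = 0.0523), and the KO call without KO pre-cDC2 replicate 2 (adjusted p = 0.0734).

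Nfil3 (ENSMUSG00000056749.7, chr13:52967209-52981073, minus strand), a bZIP repressor that acts early in cDC1 specification, did not separate the cell types. For Nfil3, the pre-cDC1 libraries read 3.21, 3.18 and 1.98 log2 RPKM (WT) and 2.93, 2.78 and 2.19 (KO), and the pre-cDC2 libraries read -0.68 and 2.93 (WT replicates 2, 3) and 1.97 and 3.55 (KO replicates 1, 2). WT pre-cDC2 replicate 2, with 17 reads, was the lowest of all 10 libraries, while the other 3 pre-cDC2 libraries spanned 1.97 to 3.55, about the range of the pre-cDC1 libraries. The difference was -1.66 ± 0.92 log2 in WT (limma adjusted p = 0.305) and 0.13 ± 0.92 in KO (limma adjusted p = 0.944). Without WT pre-cDC2 replicate 2 the WT difference was 0.14 log2, and with that library alone it was -3.47.

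Among the factors shared by both branches, Zbtb46 (ENSMUSG00000027583.13, chr2:181387762-181459426, minus strand), a zinc finger repressor that marks cDCs and their committed precursors among myeloid cells, was lower in pre-cDC2. For Zbtb46, the pre-cDC1 libraries read 5.49, 5.64 and 5.64 log2 RPKM (WT) and 5.61, 5.66 and 5.47 (KO), and the pre-cDC2 libraries read 4.99 and 3.78 (WT replicates 2, 3) and 4.08 and 3.95 (KO replicates 1, 2). The pre-cDC1 libraries lay within a narrow band above all pre-cDC2 libraries, of which WT replicate 2 was nearest to them. The difference was -1.21 ± 0.29 log2 in WT (limma adjusted p = 0.0259), or 2.31-fold lower, and -1.57 ± 0.29 in KO (limma adjusted p = 0.00478), or 2.96-fold lower. Zbtb46 thus remained at the 83.7 percentile of tested genes in WT pre-cDC2 and the 78.5 percentile in KO pre-cDC2. The WT difference was -1.81 log2 without WT pre-cDC2 replicate 2 and -0.60 with it alone. The WT call was lost without WT pre-cDC1 replicate 1 (limma adjusted p = 0.0645), 2 (adjusted p = 0.0756) or 3 (adjusted p = 0.0733), and, just above the threshold, without KO pre-cDC2 replicate 1.

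Spi1 (ENSMUSG00000002111.8, chr2:91082390-91115756, plus strand), which encodes PU.1, the ETS factor that opens myeloid and dendritic enhancers, had the highest mean level of the members in each of the 4 groups, between the 96.1 and 98.5 percentiles of tested genes. For Spi1, the pre-cDC1 libraries read 7.46, 7.55 and 7.48 log2 RPKM (WT) and 7.27, 6.87 and 7.06 (KO), and the pre-cDC2 libraries read 7.68 and 5.99 (WT replicates 2, 3) and 6.13 and 6.28 (KO replicates 1, 2). WT pre-cDC2 replicate 2 was above all pre-cDC1 libraries, and the other 3 pre-cDC2 libraries were below them all. The difference was -0.66 ± 0.38 log2 in WT (limma adjusted p = 0.329) and -0.86 ± 0.38 in KO (limma adjusted p = 0.153), and neither passed the test in that fit. Without WT pre-cDC2 replicate 2 the WT difference was -1.50 log2, and with that library alone 0.18. The KO difference passed when only the KO groups were fitted (limma adjusted p = 0.0170), where 21.9% of tested genes did. Its calls on leaving out WT pre-cDC2 replicate 2 or 3 rest on a changed shared variance, while the KO difference stayed the same.

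Klf4 (ENSMUSG00000003032.8, chr4:55527143-55532466, minus strand), a zinc finger factor known for monocytes and for part of the cDC2 branch, had a positive difference in both genotypes that did not pass the test when the deposited values of all libraries were fitted together. For Klf4, the pre-cDC1 libraries read 4.78, 4.65 and 4.96 log2 RPKM (WT) and 3.96, 3.95 and 4.28 (KO), and the pre-cDC2 libraries read 6.33 and 4.73 (WT replicates 2, 3) and 5.09 and 4.82 (KO replicates 1, 2). WT pre-cDC2 replicate 3 fell within the WT pre-cDC1 range, whereas both KO pre-cDC2 libraries were above all KO pre-cDC1 libraries. The difference was 0.73 ± 0.38 log2 in WT (limma adjusted p = 0.264) and 0.89 ± 0.38 in KO (limma adjusted p = 0.132). Without WT pre-cDC2 replicate 2 the WT difference was -0.06 log2, and with that library alone 1.53. The KO difference passed when only the KO groups were fitted (limma adjusted p = 0.0205), when scaled to total reads (1.15 log2, adjusted p = 0.0462) and without WT pre-cDC2 replicate 2 (adjusted p = 0.00450) or 3 (adjusted p = 0.00421).

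Klf2 (ENSMUSG00000055148.7, chr8:72319033-72321656, plus strand), which keeps leukocytes quiescent and drives their egress genes, had no difference between the cell types past the test. For Klf2, the pre-cDC1 libraries read 6.15, 5.62 and 4.96 log2 RPKM (WT) and 5.75, 5.91 and 5.12 (KO), and the pre-cDC2 libraries read 4.11 and 5.61 (WT replicates 2, 3) and 4.57 and 5.02 (KO replicates 1, 2). The WT groups overlapped through replicate 3 of each, and the KO groups did not. The difference was -0.72 ± 0.47 log2 in WT (95% interval -1.77 to 0.34, limma adjusted p = 0.389) and -0.80 ± 0.47 in KO (95% interval -1.85 to 0.25, limma adjusted p = 0.270). Its WT value was 0.04 log2 when WT pre-cDC2 replicate 2 was left out and -1.47 with that library alone. Klf4 minus Klf2 within a library was between -1.96 and -0.00 log2 in pre-cDC1, and in pre-cDC2 it was 2.22 and -0.89 (WT replicates 2, 3) and 0.52 and -0.20 (KO replicates 1, 2). Klf2 was thus the more abundant KLF factor in each pre-cDC1 library, by a margin that rounds to 0 in WT replicate 3, and no order held across the pre-cDC2 libraries.

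**Figure D2:**
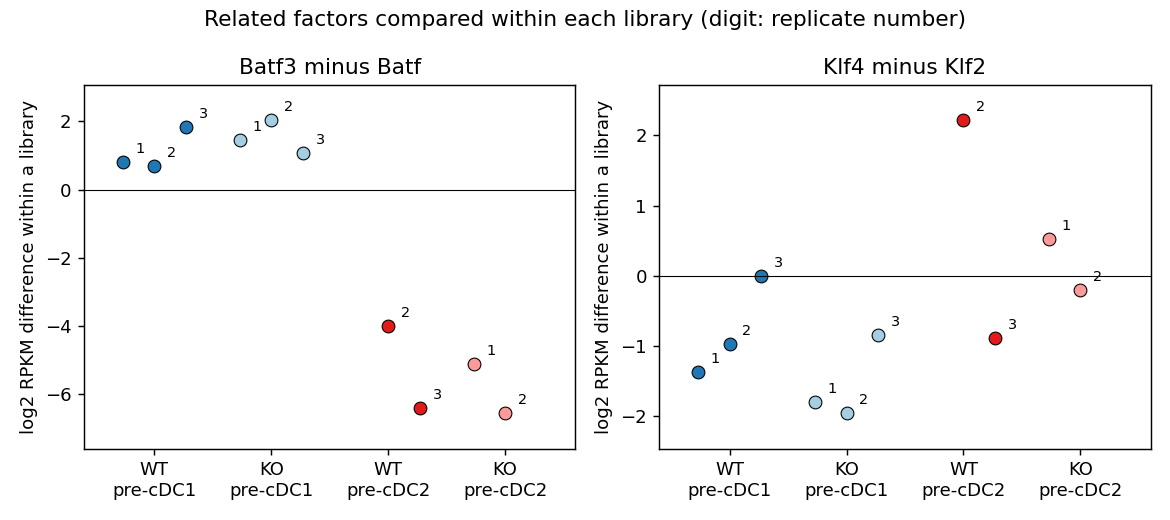
Difference in log2 RPKM between related factors within each library, for Batf3 minus Batf on the left and Klf4 minus Klf2 on the right, with libraries grouped by genotype and cell type. Points are libraries and digits replicate numbers. Batf3 minus Batf is positive in all 6 pre-cDC1 libraries (0.70 to 2.04) and negative in all 4 pre-cDC2 libraries (-6.57 to -3.99), while Klf4 minus Klf2 is highest in WT pre-cDC2 replicate 2 at 2.22.

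The order of the members by group mean in WT pre-cDC1 was Spi1 at 7.50 ± 0.05 log2 RPKM (SD, n = 3), Zfp366 at 5.59 ± 0.07, Zbtb46 at 5.59 ± 0.09, Klf2 at 5.58 ± 0.60, Klf4 at 4.79 ± 0.15, Batf3 at 4.58 ± 0.13, Bcl6 at 3.61 ± 0.07, Batf at 3.47 ± 0.71, Nfil3 at 2.79 ± 0.70 and Batf2 at 1.21 ± 0.22. The ranges of Zfp366, Zbtb46 and Klf2 overlapped, as did those of Klf4 and Batf3 and those of Bcl6, Batf and Nfil3 taken in neighbouring pairs. Spi1 was above every other member in all 3 of these libraries, and Batf2 was below every other member. In WT pre-cDC2 the means ran from Spi1 at 6.83 ± 1.19 log2 RPKM (SD, n = 2) and Klf4 at 5.53 ± 1.13 down to Zfp366 at -1.78 ± 3.75 and Batf2 at -3.59 ± 4.36. Zfp366 stood next to the bottom by that mean, but not in replicate 2. There it read 0.87, above Batf3 (-0.26), Batf2 (-0.51) and Nfil3 (-0.68). In KO pre-cDC2, where the replicates were closer, the means were Spi1 6.20 ± 0.10, Klf4 4.96 ± 0.19, Klf2 4.80 ± 0.32, Zbtb46 4.01 ± 0.09, Batf 3.85 ± 0.10, Nfil3 2.76 ± 1.11, Bcl6 1.84 ± 0.18, Batf3 -1.99 ± 0.94, Zfp366 -2.23 ± 1.91 and Batf2 -4.53 ± 3.03 log2 RPKM (SD, n = 2). The ranges of Klf4 and Klf2 overlapped, as did those of Batf3, Zfp366 and Batf2 in neighbouring pairs.

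WT pre-cDC2 replicate 2 lay outside the range of the other 3 pre-cDC2 libraries for all 10 members, against 63.8% of tested genes. It was above them for 7 members (Batf3, Batf2, Bcl6, Zfp366, Zbtb46, Spi1 and Klf4) and below them for 3 (Batf, Nfil3 and Klf2). Of all tested genes, 32.4% lay above and 31.4% below. The gap to WT pre-cDC2 replicate 3 was 1.69 log2 for Spi1, 1.60 for Klf4, 1.21 for Zbtb46 and 1.36 for Bcl6, and -3.62 for Nfil3 and -1.51 for Klf2. In the same library 8 of 9 core cDC genes and 8 of 10 plasmacytoid DC markers lay above the other 3 pre-cDC2 libraries, and all 14 T cell and all 11 NK cell markers lay below. The part of those markers in the members' gaps was not tested.

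**Figure D3:**
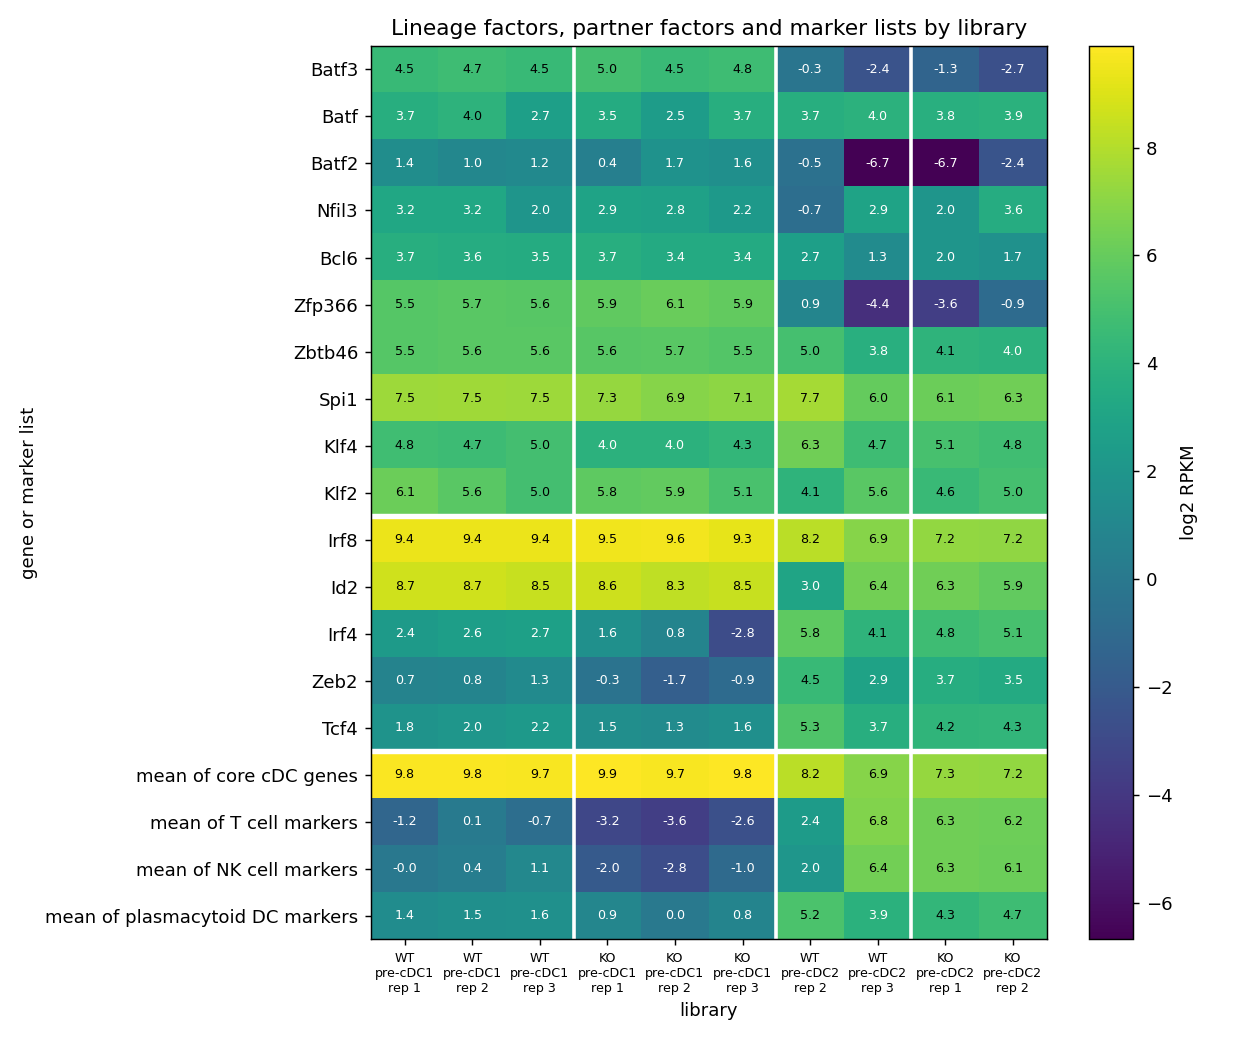
Log2 RPKM in each of the 10 libraries (columns) for the members, for 5 factors they act with and for the mean of 4 marker lists (rows), with the colour scale and the printed values on the same unit. White lines separate groups of libraries and blocks of rows. The mean of T cell markers is 2.4 in WT pre-cDC2 replicate 2 and 6.2 to 6.8 in the other pre-cDC2 libraries, beside core cDC means of 8.2 and 6.9 to 7.3.

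No member differed between KO and WT by limma in either cell type, with 0 of 10 past the adjusted threshold in each. In pre-cDC1, limma called 0.0271% of tested genes, which is 4 genes, all lower in KO, while 1335 genes (9.03%) had an unadjusted p under 0.05. In pre-cDC2 it called 0.0676%, or 10 genes, with 987 (6.67%) at an unadjusted p under 0.05. No member had an unadjusted p under 0.05 in either comparison. With voom on recovered reads, 0 members were past the threshold in each comparison as well. The members' median difference was -0.05 log2 in pre-cDC1 and -0.41 in pre-cDC2, beside -0.00 and 0.00 over all tested genes.

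In pre-cDC1 the genotypes did not overlap for 3 members, against 17.2% of tested genes (7.88% higher and 9.27% lower in KO). The 3 KO pre-cDC1 libraries were all below the 3 WT ones for Klf4, by -0.73 ± 0.34 log2 (SE, n = 3 and 3, 95% interval -1.49 to 0.03, limma unadjusted p = 0.0571, adjusted p = 0.563). They were all below for Spi1 as well, by -0.43 ± 0.34 (95% interval -1.20 to 0.34, limma adjusted p = 0.803). For Zfp366 the KO libraries were all above, by 0.37 ± 1.14 log2 (95% interval -2.20 to 2.93, limma adjusted p = 0.987). The fit shares a single variance over all 4 groups, and the SD of Zfp366 within pre-cDC1 was 0.07 (WT) and 0.14 (KO), against 3.75 in WT pre-cDC2. T cell markers were lower in KO pre-cDC1 too, with 13 of 14 below WT by group mean, none past the test, and NK cell markers likewise in 11 of 11. Also lower by group mean, with none past the test, were 7 of 7 neutrophil, 8 of 8 red pulp macrophage, 6 of 7 monocyte and 5 of 5 B cell markers. So were 7 of 10 plasmacytoid DC markers and 10 of 13 cDC2 genes. Higher in KO, again with none past the test, were 8 of 9 erythroid markers and 13 of 14 cDC1 genes. The median difference of the cDC1 genes was 0.34 log2. The part of these markers and genes in the Klf4, Spi1 and Zfp366 values was not tested.

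The other members overlapped between the genotypes in pre-cDC1. The difference was 0.17 ± 0.53 log2 for Batf3, with a 95% interval of -1.02 to 1.36. It was -0.01 ± 0.26 for Zbtb46, with an interval of -0.59 to 0.57, and -0.10 ± 0.31 for Bcl6, with an interval of -0.79 to 0.60. The values were -0.23 ± 0.39 for Batf, 0.04 ± 1.55 for Batf2, -0.15 ± 0.83 for Nfil3 and 0.02 ± 0.42 for Klf2. A difference inside these intervals cannot be told from none by this fit, whose shared variance includes the pre-cDC2 libraries. The SD of Batf3 was 0.13 (WT) and 0.21 (KO) in pre-cDC1, against 1.54 and 0.94 in pre-cDC2. For Batf2 it was 0.22 and 0.71, against 4.36 and 3.03. Batf went the other way, with 0.71 and 0.64 in pre-cDC1 against 0.16 and 0.10. With only the pre-cDC1 groups fitted, 0 members passed the test.

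In pre-cDC2, with 2 libraries a genotype, the KO and WT libraries overlapped for all 10 members, and 30.2% of tested genes did not overlap. The differences were 1.64 ± 1.01 log2 for Nfil3 (95% interval -0.64 to 3.91, limma adjusted p = 0.823), -0.63 ± 0.42 for Spi1 (95% interval -1.58 to 0.32, limma adjusted p = 0.831) and -0.57 ± 0.41 for Klf4 (95% interval -1.50 to 0.36, limma adjusted p = 0.838). Those for Batf3, Zbtb46, Bcl6 and Batf were -0.64 ± 0.65, -0.37 ± 0.31, -0.16 ± 0.38 and -0.00 ± 0.47. The sign turned on which WT library was used. Against WT replicate 2 alone, KO was lower for Spi1 (-1.47), Zbtb46 (-0.98) and Klf4 (-1.37) and higher for Nfil3 (3.45). Against WT replicate 3 alone, the differences were 0.21 for Spi1, 0.24 for Zbtb46, 0.23 for Klf4 and -0.17 for Nfil3. A lone library is assumed there to vary like the other groups, so no test is read from these differences. The interaction, which asks whether the genotype difference differs between the cell types, passed for 0 of 10 members (limma adjusted p 0.987 to 0.999) and for 0.0203% of tested genes, with 713 genes (4.82%) at an unadjusted p under 0.05.

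**Figure D4:**
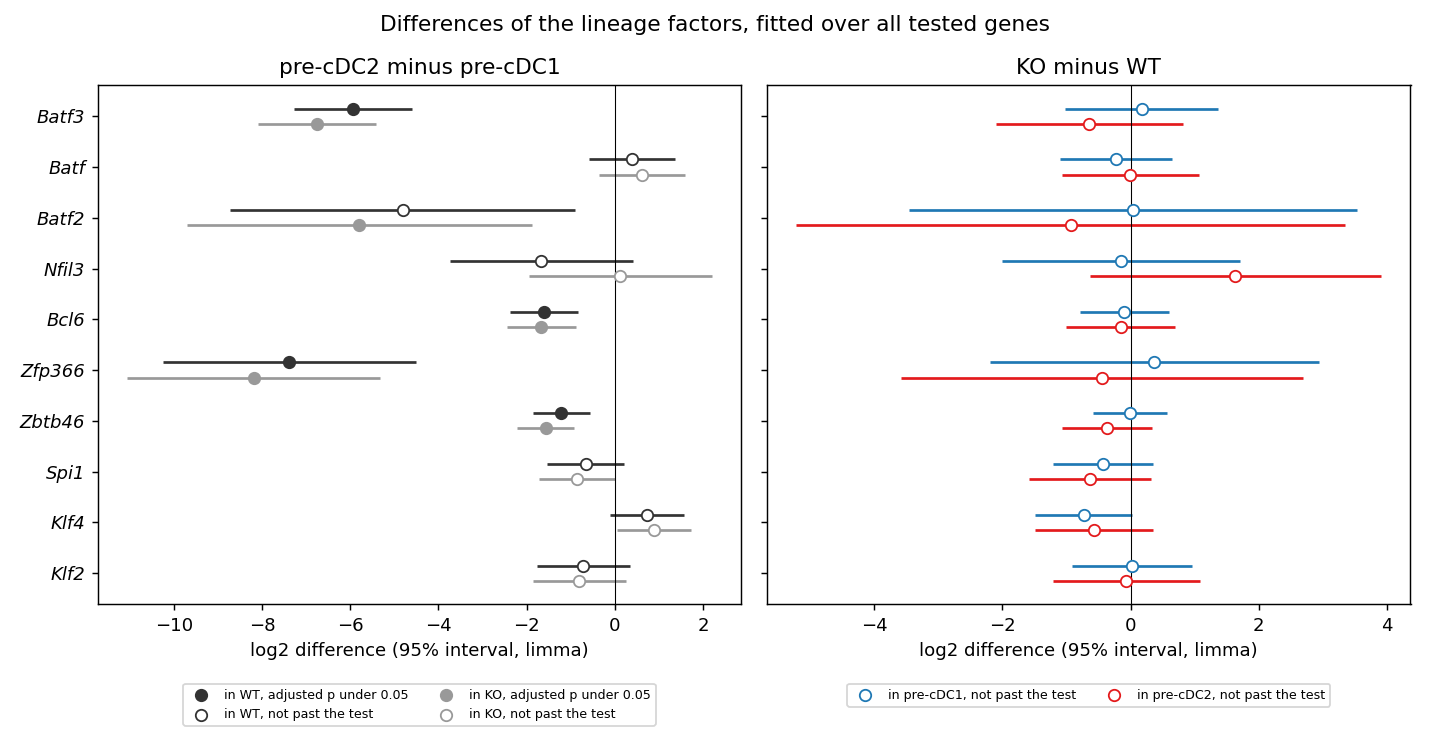
Log2 difference of each member with its 95% interval from limma, for pre-cDC2 minus pre-cDC1 on the left (dark grey in WT, light grey in KO) and KO minus WT on the right (blue in pre-cDC1, red in pre-cDC2). Filled points passed an adjusted p of 0.05. Batf3, Zfp366, Bcl6 and Zbtb46 are filled and negative in both genotypes on the left, Batf2 in KO alone, and no point on the right is filled.

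The factors that act with the members differed between the cell types in both directions. Of 38 tested other regulators of DC development, 11 were higher and 5 lower in WT pre-cDC2 than in WT pre-cDC1, and 15 were higher and 8 lower in KO, with medians of 0.52 and 0.77 log2. Irf8, the partner of Batf3, was at 9.37 to 9.43 log2 RPKM in WT pre-cDC1 and at 8.18 and 6.89 in WT pre-cDC2 replicates 2 and 3, a difference of -1.86 ± 0.31 (limma adjusted p = 0.00563). In KO it differed by -2.27 ± 0.31 log2 (limma adjusted p = 0.00113). The Irf8 difference was thus smaller than that of Batf3 on the log2 scale in both genotypes. Id2, which holds E proteins in check and is needed by cDC1, differed by -3.91 ± 0.73 log2 in WT (limma adjusted p = 0.00913) and by -2.38 ± 0.73 in KO (adjusted p = 0.0462). WT pre-cDC2 replicate 2 was lowest for Id2 at 3.02 log2 RPKM, against 5.88 to 6.37 in the other pre-cDC2 libraries and 8.28 to 8.69 in pre-cDC1.

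Zeb2, the repressor that NFIL3 opposes, was higher in pre-cDC2 by 2.76 ± 0.54 log2 in WT (limma adjusted p = 0.0109) and 4.52 ± 0.54 in KO (adjusted p = 0.000534), although Nfil3 itself did not pass the test. Tcf4, the E protein of plasmacytoid DCs, was higher by 2.50 ± 0.40 log2 in WT (limma adjusted p = 0.00427) and 2.76 ± 0.40 in KO (adjusted p = 0.00136). Irf4, the counterpart of Irf8 in cDC2, was higher by 5.06 ± 1.09 log2 in KO (limma adjusted p = 0.0104), and its WT difference of 2.39 ± 1.09 did not pass (adjusted p = 0.211). Runx2 was higher by 2.90 ± 0.28 log2 in WT (limma adjusted p = 0.000289) and 3.47 ± 0.28 in KO (adjusted p = 6.29e-05). Bhlhe40, a basic helix-loop-helix repressor, was higher by 1.74 ± 0.28 log2 in WT (limma adjusted p = 0.00447) and 3.58 ± 0.28 in KO (adjusted p = 5.03e-05). Ahr, the aryl hydrocarbon receptor, was lower by -2.18 ± 0.27 log2 in WT (limma adjusted p = 0.00119). Zeb2, Tcf4, Irf4, Runx2 and Bhlhe40 were each highest in WT pre-cDC2 replicate 2 among the pre-cDC2 libraries. Zeb2 read 4.46 log2 RPKM there against 2.89 to 3.65 in the others, and Ahr lay within their range. That library held the lowest T and NK cell marker sums and the highest plasmacytoid DC sum of the pre-cDC2 libraries. Several of these genes are also expressed by T, NK or plasmacytoid cells, whose markers were higher in pre-cDC2 than in pre-cDC1, and that part was not tested. Between the genotypes, Bhlhe40 was the single gene of this list past the test, lower in KO pre-cDC1 by -2.12 ± 0.25 log2 (limma adjusted p = 0.0408). That call was lost in 11 of 19 alternatives (limma adjusted p 0.00529 to 0.201 over the 19), among them voom (adjusted p = 0.0846), the replicate block (adjusted p = 0.124), and leaving out any WT pre-cDC1 library, KO pre-cDC1 replicate 2 or 3, or either KO pre-cDC2 library. The pre-cDC1 libraries read 5.03, 4.90 and 5.31 log2 RPKM (WT) and 3.24, 2.54 and 3.11 (KO) for Bhlhe40, and the groups did not overlap. Irf8, Irf4, Id2, Zeb2 and Tcf4 did not pass the test between the genotypes, with differences of 0.06, -2.71, -0.14, -1.88 and -0.57 log2 in pre-cDC1 and of -0.34, -0.04, 1.39, -0.11 and -0.31 in pre-cDC2.

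AP-1 proteins include the JUN proteins, which BATF factors pair with, and the FOS proteins, which pair with the same JUN proteins. Of 6 tested genes of both families, 1 was lower in WT pre-cDC2 (Fos, by -0.93 ± 0.22 log2, limma adjusted p = 0.0259). In KO pre-cDC2, Fos was lower by -0.98 ± 0.22 log2 (limma adjusted p = 0.0130), while Fosl2 was higher by 2.16 ± 0.44 (adjusted p = 0.00841) and Junb by 0.69 ± 0.14 (adjusted p = 0.00947). In pre-cDC1, all 6 had lower means in KO than in WT, with a median of -0.58 log2, and none passed the test.

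Relatives of the members were mostly not past the test. Of 11 tested other KLF genes, 2 were higher in WT pre-cDC2, Klf13 by 1.32 ± 0.20 log2 (limma adjusted p = 0.00383) and Klf16 by 1.25 ± 0.35 (adjusted p = 0.0470). In KO pre-cDC2, Klf13 was higher by 1.77 ± 0.20 log2 (limma adjusted p = 0.000472). Spib, the ETS relative of Spi1 that plasmacytoid DCs and B cells use, was higher by 2.36 ± 0.34 log2 in WT (limma adjusted p = 0.00287) and 4.09 ± 0.34 in KO (adjusted p = 7.87e-05), and was the only one of 9 tested relatives past the test in WT. In KO, Zbtb32 (3.19 ± 0.42 log2, limma adjusted p = 0.000931) and the NFIL3 relative Tef (1.64 ± 0.42, adjusted p = 0.0234) were higher too. Of 6 tested corepressors, Ctbp2, whose product is a CtBP protein of the kind DC-SCRIPT binds, was lower in pre-cDC2 by -1.60 ± 0.35 log2 in WT (limma adjusted p = 0.0193) and -1.63 ± 0.35 in KO (adjusted p = 0.0108), and no other one passed.

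S1pr1, S1pr4, Ccr7 and Itgb7, listed for their link to KLF2 in lymphocytes, passed the test in both genotypes although Klf2 did not. S1pr1, the receptor for egress into blood and lymph, was higher in pre-cDC2 by 4.79 ± 0.81 log2 in WT (limma adjusted p = 0.00576) and 7.32 ± 0.81 in KO (adjusted p = 0.000390). Ccr7 was higher by 4.08 ± 1.05 log2 in WT (limma adjusted p = 0.0355) and 6.71 ± 1.05 in KO (adjusted p = 0.00211), and S1pr4 was higher by 1.98 ± 0.47 log2 in WT (limma adjusted p = 0.0262) and 3.10 ± 0.47 in KO (adjusted p = 0.00190). Itgb7 was lower, by -0.85 ± 0.16 log2 in WT (limma adjusted p = 0.00867) and -0.50 ± 0.16 in KO (adjusted p = 0.0478). In WT pre-cDC2 replicate 2 these 4 genes were below the other 3 pre-cDC2 libraries, as all T cell and NK cell markers were. S1pr1, for instance, was at 3.31 log2 RPKM there against 6.10 to 6.73 in the others, and T cells also make S1pr1 and Ccr7. The part of T cell transcripts in these values was not tested.

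The pattern of each member over the 10 libraries was compared with 8670 other genes whose mean was at least 1 log2 RPKM, by Pearson's r, as a description that the split between the cell types dominates. Batf3 was most like Rab32 (r = 0.999), Ifi205 (r = 0.998) and Shtn1 (r = 0.996). Zfp366 was most like Bcl2l14 (r = 0.996), Cd180 (r = 0.995) and Cd24a (r = 0.993), and Zbtb46 was most like Csf2ra (r = 0.998), Unc93b1 (r = 0.997) and Rasgrp4 (r = 0.995). Bcl6 was most like Cep85 (r = 0.993), Irf5 (r = 0.991) and Meaf6 (r = 0.991), and Batf2 most like Sppl2a (r = 0.986). Spi1 was most like Evi2a (r = 0.982) and Klf4 most like Scpep1 (r = 0.976). The closest genes were less close for Nfil3 (Tapbpl, r = 0.935), Batf (Lyrm4, r = 0.924) and Klf2 (Top2b, r = 0.910). Among the members themselves, r over the 10 libraries was 0.986 for Bcl6 and Zbtb46, 0.974 for Batf3 and Bcl6 and 0.969 for Zfp366 and Zbtb46. It was 0.779 for Nfil3 and Klf2, -0.771 for Nfil3 and Klf4 and -0.768 for Klf2 and Klf4, 3 pairs in which WT pre-cDC2 replicate 2 held the lowest value of Nfil3 and of Klf2 and the highest of Klf4.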

How the data were processed

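RNA of spleen precursors was sequenced in 10 libraries. The authors deposited log2 RPKM values per gene, made with STAR 2.3, featureCounts 1.5.0 and edgeR in R 3.3.3 on GRCm38 (mm10), per the submitters' processing notes. The sources used here do not give the annotation release, the strand setting or the way cells were isolated. Because strand is not stated, reads of a gene and of an antisense neighbour cannot be told apart.

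The deposited log2 values were used as they stand. Whole reads were recovered from them: 525020 values of 52502 genes came out whole within 0.01 reads (100% of the values solved), with totals of 7861828 to 13176778 reads per library. Reads served the read counts, the floor of 3 reads and the voom alternative. Groups came from the sample labels. Genes above 0 log2 RPKM in at least 2 libraries were fitted with limma 3.58.1 (R 4.3.3, 4 group means, trended prior, 6 residual and 3.31 prior degrees of freedom), with Benjamini-Hochberg adjustment over all 14787 genes for each of 5 comparisons. A ± after a log2 difference is an SE and after a group mean an SD, and a fold is 2 to the fitted difference. The script was tested on simulated data. Sample descriptions number the libraries of both cell types within a genotype, so same-numbered libraries may come from the same mouse, which the labels do not state. Same-numbered libraries of different groups, of either genotype, did not deviate together (r of -0.0301 to 0.0315 over 12 pairs). Most of those pairs cross genotypes and could not share a mouse. Within a genotype r was -0.0199 to 0.0283. With 2 pre-cDC2 libraries a genotype, whose deviations mirror each other, this check cannot decide on pairing. Replicate numbers were used as a block in alternatives, not in the reported fit. Alternatives covered the filter, an added 1 RPKM, scaling, voom, the samples fitted, a replicate block and each library left out. The members and all gene lists were chosen with earlier results of these data known. Genes named beside the members were the 3 with the highest Pearson's r for each member among tested genes averaging 1 log2 RPKM or more without a predicted-gene symbol, genes of the lists past the test (from each list at most the 6 with the smallest p, not all printed), and Irf8, Irf4, Id2, Zeb2 and Tcf4. A result for 1 further gene of the lists is not reported here.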

Additional observations from a re-analysis of the deposited data

How the results depend on the processing

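Over 20 alternatives, the 9 differences of members past the test kept their direction in all 180 values, and 24 of those values were no longer past it. Batf3 passed in both genotypes under each alternative. The count of members past the test between the cell types in WT, 4 in the report, was 1 (Batf3) when only the groups compared were fitted, and 2 to 6 on leaving out a library, with 2 (Batf3 and Zfp366) without WT pre-cDC1 replicate 1 or 2. In KO, 5 in the report, it was 7 when only the groups compared were fitted, 6 when scaled to total reads, 4 without the filter and 4 to 7 on leaving out a library. Between the genotypes in pre-cDC2 it was 0 to 4 and for the interaction 0 to 2 on leaving out a library, with the highest counts without WT pre-cDC2 replicate 3. A replicate block over all groups left 4 members in WT, 5 in KO and 0 between the genotypes. Whether the numbers pair the libraries is not stated in the labels. A replicate block within genotype left 1 in WT (Batf3) and 2 in KO (Batf3 and Zfp366), beside 1.47% and 7.4% of tested genes. Over all tested genes, the count in WT was 1697 in the report, 460 with only the groups compared, 1164 with the replicate block, 217 with the block within genotype and 999 to 2722 on leaving out a library. In KO the same count was 3074 in the report, 3239 with only the groups compared, 1094 to 3526 under the other alternatives that kept all libraries and 1418 to 3887 on leaving out a library. Between the genotypes in pre-cDC1 it was 4 in the report, 53 with only the groups compared, 0 to 18 under the other alternatives that kept all libraries (0 with voom) and 0 to 114 on leaving out a library. In pre-cDC2 it was 10 in the report, 0 with only the groups compared, 2 to 25 under the other alternatives that kept all libraries (4 with voom) and 5 to 1048 on leaving out a library. For the interaction it was 3 in the report, 0 to 6 with all libraries kept and 0 to 495 on leaving out a library. Scaling to total reads moved the median of all genes from 0.06 to 0.27 log2 in WT and from 0.09 to 0.35 in KO. The deposited values use an effective library size, which is total reads times a normalization factor. Scaling to total reads takes that factor out. It was 0.905 to 0.956 in pre-cDC1 libraries and 1.04 to 1.13 in pre-cDC2 libraries, so the factors set this shift. The cause of the other shifts was not tested. The 20 alternatives were planned ones, and the Batf2 values at a floor of 3 reads are not among them. The members and lists were chosen with earlier results of these data known.

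None of the differences that changed sign was past the test in the report. Nfil3 between the cell types in KO was -0.0217 log2 with quantile normalization, -0.0659 when centred on library medians and -0.0925 with the replicate block within genotype. Between the genotypes, Zbtb46 in pre-cDC1 was 0.0261 with quantile normalization and 0.0188 when scaled to total reads. In pre-cDC2, Batf was 0.0714 and Klf2 0.0099 when scaled to total reads, and Batf was 0.0025 with voom. Leaving out a library gave the following ranges where a sign changed. Between the cell types in WT these were -0.0136 to 0.67 for Batf, -3.47 to 0.14 for Nfil3, -1.50 to 0.18 for Spi1, -0.0647 to 1.53 for Klf4 and -1.47 to 0.0382 for Klf2, and in KO -0.66 to 0.92 for Nfil3. Between the genotypes in pre-cDC1 they were -0.63 to 0.14 for Batf, -0.20 to 0.45 for Batf2, -0.56 to 0.0664 for Nfil3, -0.0586 to 0.0472 for Zbtb46 and -0.29 to 0.30 for Klf2. In pre-cDC2 they were -1.73 to 0.45 for Batf3, -0.12 to 0.11 for Batf, -4.02 to 2.15 for Batf2, -0.17 to 3.45 for Nfil3, -0.83 to 0.52 for Bcl6, -3.10 to 2.21 for Zfp366, -0.98 to 0.24 for Zbtb46, -1.47 to 0.21 for Spi1, -1.37 to 0.23 for Klf4 and -0.82 to 0.69 for Klf2. For the interaction they were -1.90 to 0.28 for Batf3, -0.14 to 0.62 for Batf, -4.06 to 2.10 for Batf2, -0.0166 to 3.60 for Nfil3, -0.73 to 0.62 for Bcl6, -3.47 to 1.84 for Zfp366, -0.97 to 0.25 for Zbtb46, -1.04 to 0.64 for Spi1, -0.64 to 0.96 for Klf4 and -0.84 to 0.67 for Klf2.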
